A study of Mus musculus with 4 samples.

Results

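The NLRP3 inflammasome genes and the genes of the proteins that imiquimod binds besides its own receptor were followed in Langerhans cells from mouse ears. The 10 genes were chosen by name from what is known of the drug and the pathway: Nlrp3, Pycard, Casp1, Casp4, Gsdmd, Nek7, Txnip, Nqo2, Adora2a and Adora2b. Each symbol had 1 row among the 55487 genes of the deposited count table, and all 10 passed the filter on low counts, which kept 39439 genes. Every library is labelled as Langerhans cells from the ear of a wild-type mouse; 2 are from the control treatment, Vaseline, and 2 from imiquimod. Strain, age, dose and length of treatment are not given in the sources used here, and the labels do not state that the 2 libraries of a treatment are from different animals; the p-values then measure only the spread between these libraries, which may be technical. In the labels both Vaseline libraries share a letter code that neither imiquimod library has, and the imiquimod codes differ from each other; should these mark batches, batch and treatment cannot be told apart.

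An inflammasome is a cytosolic complex that turns a danger signal into active IL-1 family cytokines. NLRP3 is the sensor, NEK7 binds it and is needed for its activation, and the adaptor ASC, encoded by Pycard, links it to caspase-1, which cuts pro-IL-1β, pro-IL-18 and gasdermin D; the gasdermin fragment then forms membrane pores. Imiquimod is best known as an agonist of Toll-like receptor 7, but it also activates NLRP3 by inhibiting mitochondrial complex I and the quinone reductase NQO2, and it antagonises adenosine receptors, which raise or lower cyclic AMP. In the epidermis both Langerhans cells and keratinocytes can express parts of this pathway.

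The deeper libraries were those of the controls, with 41998172 (Vaseline 1) and 76028955 (Vaseline 2) counts, against 14902782 (imiquimod 1) and 20690182 (imiquimod 2). The 7 Langerhans cell markers, with Cd207 and Cd74 among them, were detected in each library and summed to 16909 and 41829 TMM-normalised CPM (counts scaled to the size of the library) with Vaseline and to 6282 and 4703 with imiquimod. The 6 keratinocyte markers summed to 14241 and 17455 CPM with Vaseline and to 12931 and 3573 with imiquimod, so the preparations held much RNA of both kinds. The 8 neutrophil markers summed to 13.9 and 49.3 CPM with Vaseline and to 72.1 and 262 with imiquimod. No marker of any of these lists was at 0 in any library. A low-level background of reads over olfactory and vomeronasal receptor genes, per exonic kilobase, also differed between libraries, from 0.0913 CPM on library totals in Vaseline 2 to 1.26 in imiquimod 2. How far these differences contribute to the values below was not tested. In RNA from a cell preparation, fewer cells of a type and less RNA per cell cannot be told apart.

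None of the 10 genes passed the test between treatments. The edgeR quasi-likelihood test with Benjamini-Hochberg adjustment called 0 of the 10, where it called 0.0634% of all 39439 genes higher and 0.137% lower with imiquimod. At an unadjusted p under 0.05, 4 members were lower (Pycard, Adora2b, Gsdmd and Nek7) and 0 higher, against 5.10% and 8.63% of all genes. DESeq2 called 1 member, Pycard, lower (adjusted p = 0.0239), against 1.70% of all genes, and 0 higher, against 0.0152%; it gave no adjusted p for Casp1, Nqo2 and Adora2a. limma-voom called 0 members, against 0.104% of all genes higher and 0.345% lower.

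The directions of the 10 genes have to be read against the scaling. The TMM factors, which make libraries comparable under the assumption that most genes do not change, gave a median log2 fold change (imiquimod over Vaseline) of 0.41 over all genes tested, but of -0.68 over the 14602 of them that stood at 5 times the receptor-gene background or more. That set was taken by the mean ratio to background over the 4 libraries, to which Vaseline 2, with the lowest background, contributes most, so genes high in Vaseline enter it more readily and its medians and shares are partly set by this choice. On library totals alone the medians were 1.30 and 0.13. By sign, 3 members were positive and 7 negative, against 60.6% and 39.4% of all genes and 17.1% and 82.9% of genes above background. On the TMM scale 7 of the 10 genes had both imiquimod libraries below both Vaseline libraries, as did 20.9% of all genes and 50.3% of genes above background. None had both above, against 30.5% and 5.56%. On library totals Pycard and Nek7 were lower without overlap, against 7.42% of all genes and 19.3% of genes above background, and Casp4 was higher without overlap, against 45.6% and 23.6%. A fit of genes above background alone held 8 of the members, all but Nqo2 and Adora2a. It called 0 of them by edgeR, where it called 0 of 14602 genes; at an unadjusted p under 0.05 Casp4 was higher and Pycard lower, against 5.47% and 4.79% of those genes. DESeq2 called 0 of the 8 there, against 0.664% of genes higher and 1.07% lower. Levels below are on the TMM scale unless library totals are named.

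**Figure D1:**
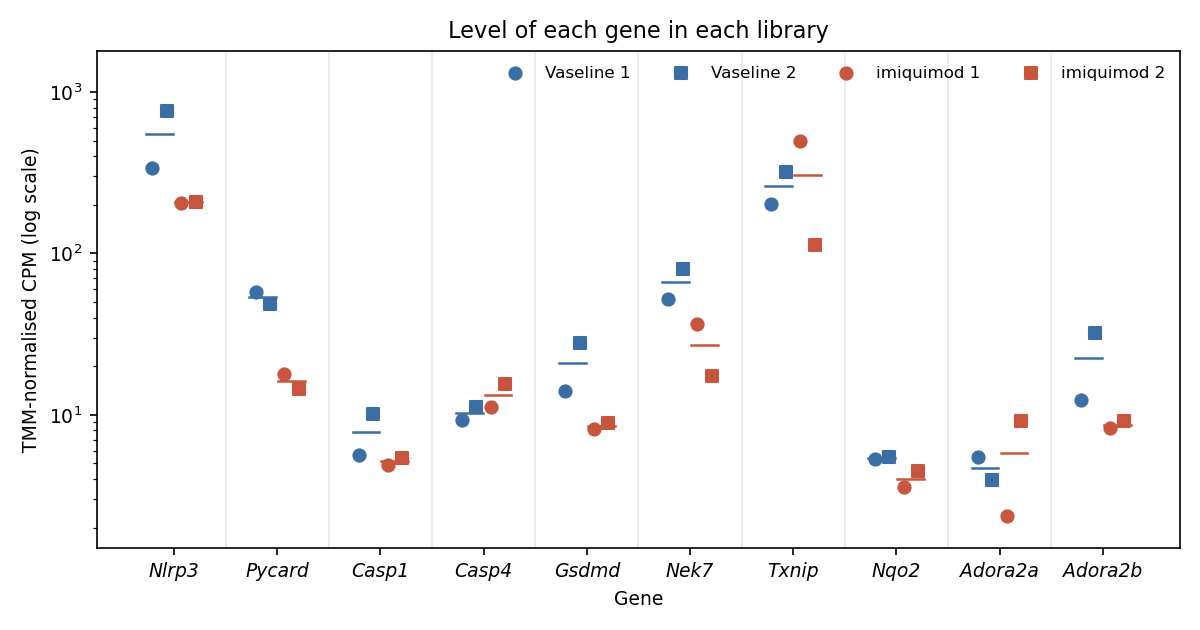
Level of each of the 10 genes in TMM-normalised CPM (log axis) in Vaseline 1 and 2 (blue circle and square) and imiquimod 1 and 2 (red circle and square), with short lines at the group means. Nlrp3 and Txnip stand far above the other genes, Pycard is lower in both imiquimod libraries, at 16.2 against 53.3 CPM on average, and the imiquimod libraries lie far apart for Txnip.

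The sensor Nlrp3 (ENSMUSG00000032691; GRCm38 chromosome 11, 59541568 to 59566956, plus strand) was, with Txnip, one of the most abundant of the 10 genes per exonic kilobase. It was measured at 336 CPM in Vaseline 1, 762 CPM in Vaseline 2, 206.5 CPM in imiquimod 1 and 208 CPM in imiquimod 2. Both imiquimod libraries were close to each other and below both controls, but the controls themselves differed 2.27-fold. Per exonic kilobase Nlrp3 exceeded 98.5% and 98.8% of tested protein-coding genes with Vaseline and 97.6% and 99.0% with imiquimod (libraries 1 and 2 of each), so its rank stayed near the top in each library. The log2 fold change was -1.40 (SE 0.98, edgeR quasi-likelihood adjusted p = 0.454). On library totals the levels were 321 and 455 CPM with Vaseline and 217 and 344 CPM with imiquimod, and the treatments overlapped, with a log2 fold change of -0.46. None of its 50-base stretches occurs in transcripts of another annotated gene.

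Nek7 (ENSMUSG00000026393; chromosome 1, 138482875 to 138620141, minus strand), the kinase that binds NLRP3, had 52.5 and 79.7 CPM with Vaseline and 36.5 and 17.5 CPM with imiquimod (libraries 1 and 2 of each treatment, here and below). The imiquimod libraries were lower than the controls but differed 2.08-fold between themselves. Its log2 fold change was -1.31 (SE 0.65, edgeR adjusted p = 0.359) and -0.54 on library totals, where the order of treatments held at 50.1 and 47.6 CPM against 38.3 and 29.0 CPM.

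The adaptor Pycard (ENSMUSG00000030793; chromosome 7, 127989708 to 127993867, minus strand) had the smallest p of the 10 genes. It stood at 57.9 and 48.7 CPM with Vaseline and at 18.02 and 14.4 CPM with imiquimod, or 53.3 ± 6.46 CPM against 16.2 ± 2.55 CPM (SD, n = 2 each). On the TMM scale the gap between treatments was larger than the spread within either, with a log2 fold change of -1.72 (SE 0.64). It did not pass by edgeR quasi-likelihood (adjusted p = 0.255) and passed by DESeq2 (log2 fold change -1.95), whose scaling put the median of genes above background at -0.94. On library totals it had 55.2 and 29.1 CPM with Vaseline and 18.9 and 23.9 CPM with imiquimod, a log2 fold change of -0.96. There the controls lay further apart than the means of the treatments did. Among genes above background alone Pycard had -1.0 (SE 0.36, edgeR adjusted p = 0.477, DESeq2 adjusted p = 0.271). Per exonic kilobase it stood at 38.5 and 83.9 times the receptor-gene background with Vaseline and at 9.47 and 5.0 times with imiquimod. An antisense gene model, Gm45205, covers part of Pycard (12.8% of its exonic bases) and went from 18.1 and 14.3 CPM with Vaseline to 4.54 and 5.46 CPM with imiquimod; since no strand setting is stated, reads of this stretch cannot be assigned to one of the pair.

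The caspase genes are neighbours on chromosome 9. Casp1 (ENSMUSG00000025888; chromosome 9, 5298517 to 5307265, plus strand), the protease of the complex, had 5.64 and 10.1 CPM with Vaseline and 4.92 and 5.37 CPM with imiquimod. Its log2 fold change was -0.61 (SE 0.62, edgeR adjusted p = 0.579) and turned to 0.33 on library totals. Casp4 (ENSMUSG00000033538; chromosome 9, 5308828 to 5336783, plus strand) encodes caspase-11 in the mouse, which senses cytosolic lipopolysaccharide and cuts gasdermin D without NLRP3. Casp4 had 9.23 and 11.2 CPM with Vaseline and 11.1 and 15.5 CPM with imiquimod, with a log2 fold change of 0.40 (SE 0.59, edgeR adjusted p = 0.699). On the TMM scale imiquimod 1 thus lay just under Vaseline 2. On library totals Casp4 had 8.81 and 6.67 CPM with Vaseline and 11.7 and 25.7 CPM with imiquimod, and the treatments separated, with a log2 fold change of 1.31. Among genes above background it had 1.24 (SE 0.45, unadjusted p = 0.0312, edgeR adjusted p = 0.478). Its log2 fold change was positive under each of the 16 alternative settings, from 0.10 to 1.31.

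The ratio of Casp4 to Casp1 needs no scaling between libraries, since both counts come from the same library. Per exonic kilobase it was 0.661 and 0.447 with Vaseline and 0.912 and 1.17 with imiquimod. Casp1 was thus the higher of the pair in both controls and in imiquimod 1, and Casp4 in imiquimod 2. The ratio is not free of the receptor-gene background, which differed between libraries. Per exonic kilobase Casp1 stood at 9.53 and 44.1 times the background with Vaseline and at 6.56 and 4.73 times with imiquimod. Casp4 stood at 6.29 and 19.7 times with Vaseline and at 5.98 and 5.52 times with imiquimod. The part of the background in the ratio was not tested. The bases before the Casp4 start are shown because Casp4 was the member that was higher without overlap on library totals and an NF-kappaB type motif lies in them. This motif, GGG, then any 2 bases, then TTTCC, was searched on both strands in the 250 bases before RefSeq starts on GRCm38.p6. It occurred in 1.41% of 32851 windows and, among the 8 members with an entry, in Casp4 alone. Capitals mark the match in the stretch chr9:5308599-5308827 on the plus strand, which ends before the GENCODE start of the gene.

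Casp4: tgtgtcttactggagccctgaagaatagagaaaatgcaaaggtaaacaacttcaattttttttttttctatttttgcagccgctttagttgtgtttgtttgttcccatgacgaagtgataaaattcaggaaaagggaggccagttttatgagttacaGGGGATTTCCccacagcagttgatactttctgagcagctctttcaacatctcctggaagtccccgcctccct

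The match lies 83 bases before the RefSeq start, and another, not shown, lies 4 bases before it. An interferon response type motif, GAAA, then any 2 bases, then GAAA, was found in none of the 8 members and in 2.98% of all windows. A match is a description of letters and was not tied to any binding in these libraries.

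Gsdmd (ENSMUSG00000022575; chromosome 15, 75862327 to 75867408, plus strand), the pore former cut by both caspases, had 13.98 and 27.96 CPM with Vaseline and 8.18 and 8.93 CPM with imiquimod. Both imiquimod libraries were below both controls, which differed 2.00-fold. The log2 fold change was -1.29 (SE 0.61, edgeR adjusted p = 0.339) and -0.34 on library totals, where the treatments overlapped. The ratio of Gsdmd to Casp1 per exonic kilobase was 1.56 and 1.75 with Vaseline and 1.05 in both imiquimod libraries. Its ratio to Gsdme, another gasdermin, was 1.07 and 1.15 with Vaseline and 0.866 and 0.936 with imiquimod. Gsdmd thus lay lower against both of these genes in the imiquimod libraries. Of all pairs of genes above background, 44.0% had ratios that separated the treatments in either direction. Among the members, Gsdmd was also lower against Casp4 and Nqo2, and its ratios to the others overlapped. Per exonic kilobase Gsdmd stood at 14.9 and 77.0 times the receptor-gene background with Vaseline and at 6.87 and 4.96 times with imiquimod.

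Txnip (ENSMUSG00000038393; chromosome 3, 96557957 to 96561883, plus strand) encodes an arrestin-like protein that binds thioredoxin, limits glucose uptake and has been described as an NLRP3 partner under oxidative stress. It had 203 and 321 CPM with Vaseline, 499.5 CPM in imiquimod 1 and 113 CPM in imiquimod 2. The imiquimod libraries lay on either side of both controls and differed 4.41-fold; on library totals they had 525 and 187.5 CPM. The log2 fold change was 0.22 (SE 0.89, edgeR adjusted p = 0.895), -1.29 without imiquimod 1 and 0.94 without imiquimod 2. Keratinocyte markers were also higher in imiquimod 1 than in imiquimod 2, at 12931 and 3573 CPM summed; their part in the Txnip values was not tested. Relative to the geometric mean of these markers, Txnip was 14.1% and 20.02% with Vaseline and 39.5% and 40.5% with imiquimod. Txnip and Casp4 were the members with a higher ratio to these markers in both imiquimod libraries, against 29.2% of genes above background, and 0 members had a lower one, against 0.760%. Relative to the keratin gene Krt14, per exonic kilobase, Txnip was 0.0206 and 0.0241 with Vaseline and 0.0433 and 0.0369 with imiquimod. Its ratio to Txn1, the thioredoxin it binds, was 1.75 and 1.37 with Vaseline and 6.63 and 3.29 with imiquimod. Both ratios were higher in each imiquimod library. Of all pairs of genes above background, 44.0% had ratios that separated the treatments in either direction. The partners Krt14 and Txn1 had log2 fold changes of -0.67 and -1.70, the latter the lowest of the thioredoxin system genes. An antisense model, Gm15441, covers 19.4% of Txnip exonic bases but had at most 1.53 CPM in any library.

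The Txnip promoter is shown because the gene is known to answer to glucose through carbohydrate response elements, pairs of E-box like letters spaced by 5 bases. The motif, CACGNG at both ends of any 5 bases, was searched on both strands in the same windows and occurred in 15 of 32851, or 0.0457%. Among the members they were found in Txnip alone, and capitals mark them in the 250 bases chr3:96557707-96557956 on the plus strand, 68 bases before the start.

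Txnip: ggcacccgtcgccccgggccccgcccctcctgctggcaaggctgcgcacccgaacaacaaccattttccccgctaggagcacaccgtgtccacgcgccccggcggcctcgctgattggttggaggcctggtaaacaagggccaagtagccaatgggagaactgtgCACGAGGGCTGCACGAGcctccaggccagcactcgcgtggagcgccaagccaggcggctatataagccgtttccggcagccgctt

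The plain E-box CACGTG occurred in 6.02% of windows and, among the members, in Casp1 alone. Arrdc4, an arrestin relative of Txnip that is also known to respond to glucose, had 89.6 and 158.5 CPM with Vaseline and 57.5 and 35.8 CPM with imiquimod (log2 fold change -1.42, edgeR adjusted p = 0.361). The ratio of Txnip to Arrdc4 per exonic kilobase was 2.93 and 2.62 with Vaseline and 11.2 and 4.10 with imiquimod, so Txnip was the higher of the pair by more in both imiquimod libraries. Such a separation, in either direction, was seen for 44.0% of all pairs of genes above background.

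Nqo2 (ENSMUSG00000046949; chromosome 13, 33964687 to 33988443, plus strand), the quinone reductase that imiquimod inhibits, was low throughout. It had 5.32 and 5.46 CPM with Vaseline and 3.58 and 4.47 CPM with imiquimod. Per exonic kilobase these levels were 3.33 and 8.84 times the receptor-gene background with Vaseline but only 1.77 and 1.46 times with imiquimod, close to that background. The log2 fold change was -0.40 (SE 0.65, edgeR adjusted p = 0.725) and 0.50 on library totals. In addition, 18.9% of Nqo2 exonic bases overlap Serpinb6a on the opposite strand, which had 109 and 203 CPM with Vaseline and 139.5 and 42.8 CPM with imiquimod, far above Nqo2; reads of this stretch cannot be assigned to one of the pair either. Its paralog Nqo1, a target of the oxidative stress factor NRF2, had 3.02 and 3.17 CPM with Vaseline and 4.28 and 4.67 CPM with imiquimod (log2 fold change 0.54, edgeR adjusted p = 0.642). The ratio of Nqo2 to Nqo1 per exonic kilobase was 0.676 and 0.662 with Vaseline and 0.321 and 0.367 with imiquimod. Replicates were close in this ratio and the treatments were apart, within the limit set by the background under both genes. Nqo1 stood at 4.92 and 13.4 times the background with Vaseline and at 5.50 and 3.97 times with imiquimod. For comparison, 44.0% of all pairs of genes above background, a set without Nqo2, had ratios that separated the treatments in either direction. Nqo2 was also divided by 14471 genes above background. Its ratio was higher in both imiquimod libraries for 2661 of them and lower for 1591.

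The adenosine receptor genes differed from each other. Adora2a (ENSMUSG00000020178; chromosome 10, 75316877 to 75334784, plus strand) encodes the high-affinity receptor that raises cyclic AMP in leukocytes. It had 5.44 and 3.96 CPM with Vaseline, 2.36 CPM in imiquimod 1 and 9.22 CPM in imiquimod 2. The imiquimod libraries lay on either side of the controls, and leaving out imiquimod 2 turned the log2 fold change of 0.39 (SE 0.62, edgeR adjusted p = 0.722) to -0.97. At 1.54 times the background in imiquimod 1 and 3.97 times in imiquimod 2, it was also close to it. Summed neutrophil markers were likewise highest in imiquimod 2, but were lowest in Vaseline 1, where Adora2a was not; their part was not tested.

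Adora2b (ENSMUSG00000018500; chromosome 11, 62248984 to 62266453, plus strand), the low-affinity receptor, was the higher of the pair per exonic kilobase in each library. It had 12.4 and 32.3 CPM with Vaseline and 8.24 and 9.13 CPM with imiquimod. The controls differed 2.61-fold, and both lay above the imiquimod libraries. The log2 fold change was -1.36 (SE 0.61, edgeR adjusted p = 0.326) and -0.37 on library totals, where the treatments overlapped.

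**Figure D2:**
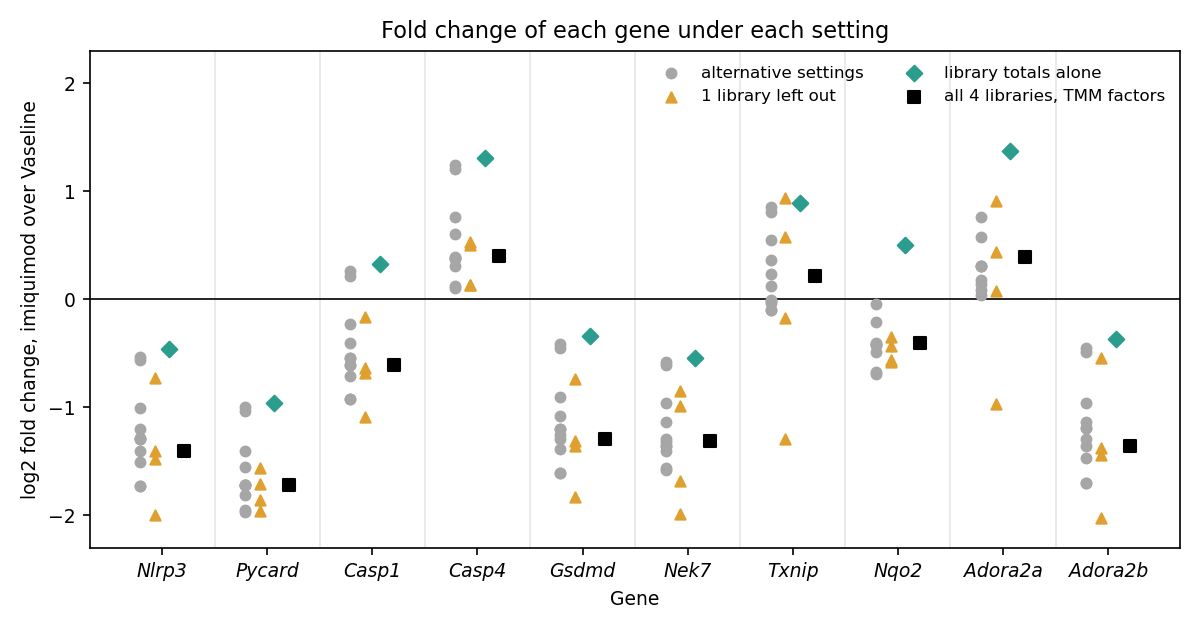
Log2 fold change of each gene (imiquimod over Vaseline) with all 4 libraries and TMM factors (black squares), on library totals alone (green diamonds), with 1 library left out (orange triangles) and under the other settings (grey circles). Nlrp3, Pycard, Gsdmd, Nek7 and Adora2b stayed below 0 and Casp4 above 0 in each setting run, while Txnip ranged from -1.29 to 0.94.

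Ratios within a library were then used to order the 10 genes without a choice of scaling. The receptor-gene background was not taken out of these counts. Of the 45 ratios between pairs of members, 19 had imiquimod libraries that did not overlap the Vaseline libraries, near the 44.0% of all pairs of genes above background. The ratios among Nlrp3, Gsdmd and Adora2b, named after all pairs were seen, varied little. The ratio of Nlrp3 to Gsdmd per exonic kilobase was 14.1 and 16.0 with Vaseline and 14.8 and 13.6 with imiquimod. The ratio of Nlrp3 to Adora2b was 12.3 and 10.7 with Vaseline and 11.4 and 10.4 with imiquimod. How many other pairs of genes vary as little was not counted. The ratio of Nlrp3 to Pycard was 5.44 in Vaseline 1 and 14.6 in Vaseline 2, against 10.7 and 13.5 with imiquimod. The ratio of Pycard to Casp4 was 6.12 and 4.26 with Vaseline and 1.58 and 0.907 with imiquimod.

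Each member was also divided by every gene above background that had a count in all 4 libraries, up to 14471 genes. For the median gene of that set, 13.8% of such ratios were higher in both imiquimod libraries than in both Vaseline libraries and 15.1% were lower. How many genes of that set reach shares as high as the members below was not counted. Casp4 was higher against 66.9% of genes and lower against 2.25%. Txnip was higher against 34.5% and lower against 2.02%. Pycard was lower against 63.5% of genes and higher against 0.408%, and Nek7 lower against 59.1% and higher against 2.95%. Nlrp3 and Gsdmd were lower against 35.4% and 33.4%, and Adora2b against 24.1%. Casp1 lay in between, higher against 22.1% and lower against 10.8%. Against the 7 Langerhans cell markers, whose own levels were lower with imiquimod, the order changed: 9 of the 10 genes had a higher ratio in both imiquimod libraries, as did 88.7% of genes above background, and 0 had a lower one, against 0.384%. Pycard was the exception, at 7.01% and 2.49% of the markers' geometric mean with Vaseline and 5.73% and 6.16% with imiquimod.

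**Figure D3:**
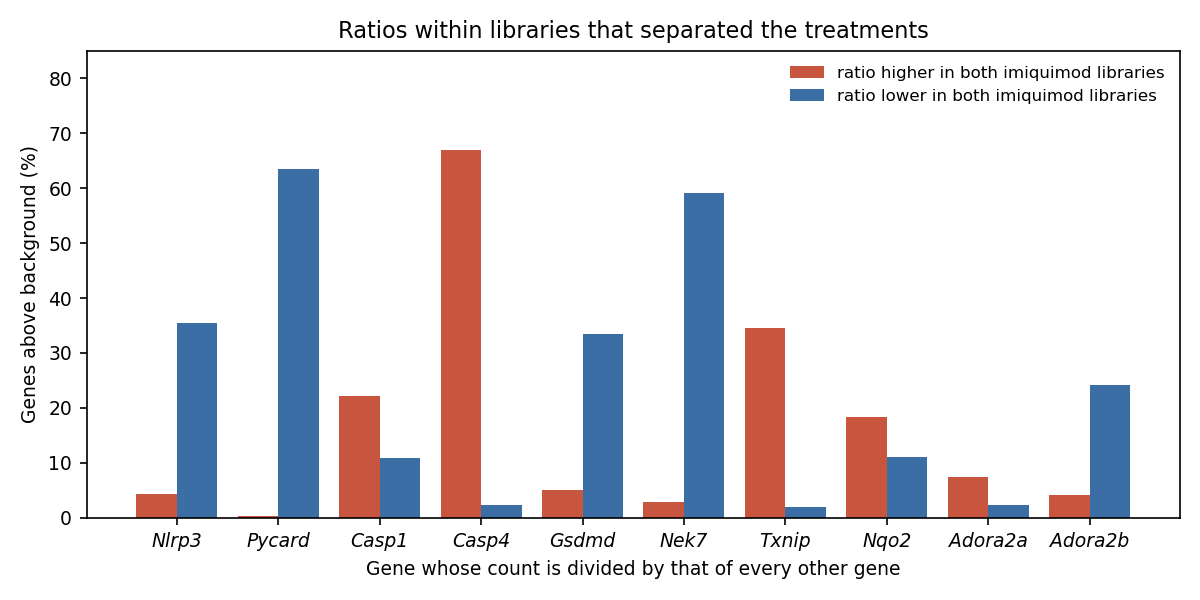
For each of the 10 genes, the percentage of genes above background (up to 14471) to which its count ratio was higher (red) or lower (blue) in both imiquimod libraries than in both Vaseline libraries. Among the 10 genes, Casp4 had the highest share upward, at 66.9%, and Pycard and Nek7 the highest downward, at 63.5% and 59.1%. How many other genes reach such shares was not counted.

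Other genes of the pathway were counted in lists, where passing means an adjusted p under 0.05 in the edgeR test of all genes. Of 12 other inflammasome sensors none passed the edgeR test, 10 had a negative log2 fold change and the median was -0.80 (0.01 on library totals), against medians of 0.41 over all genes and -0.68 over genes above background. The lowest p values belonged to the NAIP family genes Naip5 (-1.74), Naip6 (-1.53) and Naip2 (-1.49), whose near-identical copies may share reads, and to the DNA sensor Aim2 (-1.51). In the other direction Nlrp12, named after its values were seen, had 1.66 and was the 1 sensor higher at an unadjusted p under 0.05, against 4 lower. Naip5 had 20.99 and 39.7 CPM with Vaseline and 8.88 and 9.28 CPM with imiquimod (edgeR adjusted p = 0.227, DESeq2 adjusted p = 0.0362). Among genes above background DESeq2 did not call Naip5 (adjusted p = 0.411). The Langerhans cell markers, with a median of -2.41, also lay lower; their part in the values of the sensors was not tested.

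Of 13 substrates and executioners none passed by edgeR, DESeq2 called 1 lower, and 2 among genes above background, 4 had a positive and 9 a negative value, and the median was -0.98 (-0.06 on library totals). Il18, a substrate of caspase-1, had 16.7 and 40.5 CPM with Vaseline and 8.50 and 7.97 CPM with imiquimod (log2 fold change -1.80, edgeR adjusted p = 0.209; DESeq2 adjusted p = 0.0408, a call), while Il1a, whose product is released through the same pores, had 7.61 and 7.99 CPM with Vaseline and 26.4 and 19.9 CPM with imiquimod (1.56, edgeR adjusted p = 0.278). Among genes above background DESeq2 did not call Il18 (adjusted p = 0.417). Il1a was called higher by DESeq2 among genes above background (adjusted p = 1.5e-05) but not by edgeR there (adjusted p = 0.312). Il1b, the other main cytokine substrate, was chosen for ratios after its values were seen. Its ratio to Il18 per exonic kilobase was 3.42 and 4.64 with Vaseline and 37.4 and 49.0 with imiquimod. Its ratio to Nlrp3 was 0.666 and 0.970 with Vaseline and 6.06 and 7.39 with imiquimod. Il1b was thus below Nlrp3 in both controls and above it in both imiquimod libraries. The log2 fold change of Il1b itself was 1.53, and 2.48 among genes above background. Il18 and Nlrp3, the partners in these ratios, had -1.80 and -1.40. Of all pairs of genes above background, 44.0% had ratios that separated the treatments in either direction. Gsdma2, a gasdermin at 2.03 times the background, had 1.59 (edgeR adjusted p = 0.336).

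Of 20 triggers and regulators of NLRP3 none passed, 7 were positive and 13 negative, with a median of -0.52 (0.38 on library totals and 0.25 among the 17 above background). The chloride channel Clic1 had -1.61, and the calcium channel Trpm2, the nucleic acid sensor Zbp1 and the guanylate-binding protein Gbp5 had 1.34, 1.22 and 1.19, the last 3 at 2.59, 3.64 and 2.37 times the background (edgeR adjusted p from 0.326 to 0.371). Of 9 thioredoxin system genes none passed and 8 were negative, with a median of -0.87 (-0.11 on library totals). Txn1 had -1.70, Arrdc1 -0.95 and Txnrd3 -0.87. All 7 complex I core subunits were negative and none passed, with a median of -0.73, close to that of genes above background, and 0.03 on library totals. Ndufs8, Ndufv2 and Ndufs1 had -0.96, -0.95 and -0.73.

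Of 4 enzymes of quinone and nicotinamide riboside metabolism, Nqo1 among them, none passed (median 0.29, 1.22 on library totals). Cbr1, Nmrk1 and Cryz had -0.86, 0.30 and 0.28. Of 11 genes of the adenosine axis none passed, 5 were positive and 6 negative, and the median was -0.28 (0.62 on library totals). The ectoenzyme Entpd1, which starts the breakdown of ATP to adenosine and marks Langerhans cells, had 31.5 and 52.2 CPM with Vaseline and 14.8 and 19.3 CPM with imiquimod (-1.29, edgeR adjusted p = 0.349); on library totals imiquimod 2, at 31.95 CPM, lay above both controls, the higher of which had 31.2 CPM, and imiquimod 1 had 15.6 CPM. The nucleoside transporters Slc29a1 and Slc28a2 had -1.33 and 1.58, the latter at 3.96 times the background (edgeR adjusted p = 0.338 and 0.284). The receptor Adora1 had 1.18 at 1.93 times the background.

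**Figure D4:**
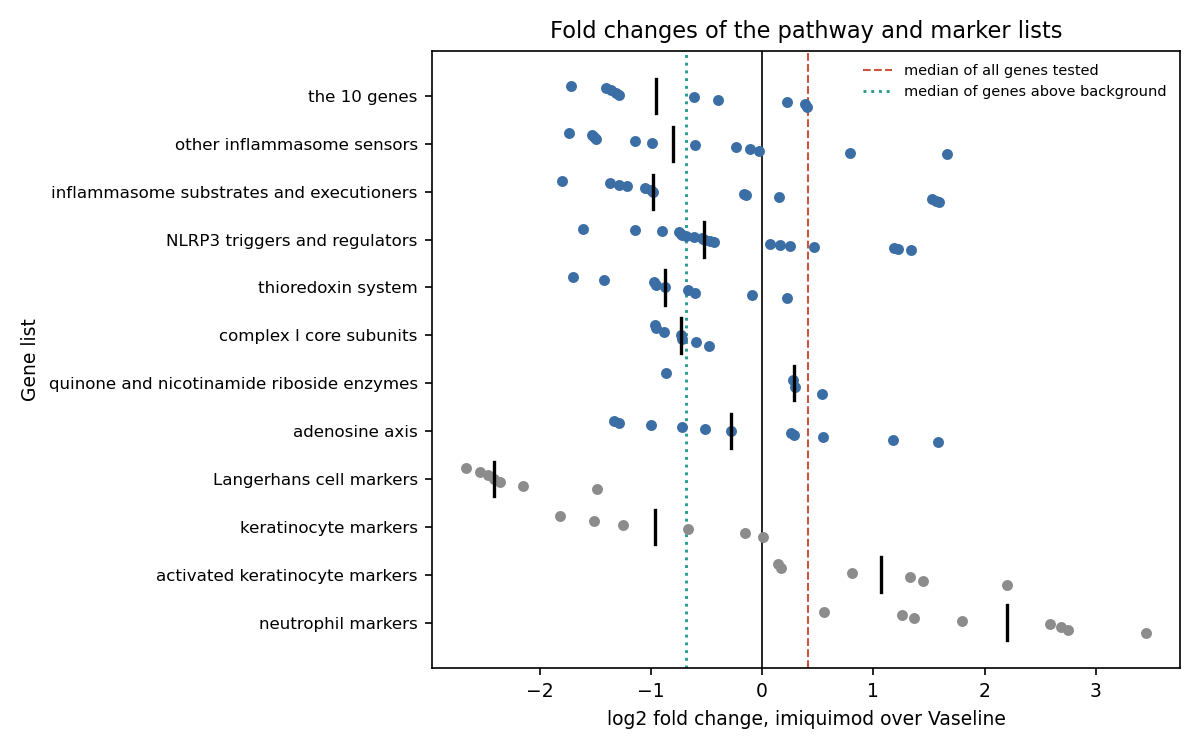
Log2 fold change (imiquimod over Vaseline, all 4 libraries, TMM factors) of each tested gene in the pathway lists (blue) and in 4 marker lists (grey), with black bars at list medians, a dashed line at the median of all genes tested (0.41) and a dotted line at that of genes above background (-0.68). Most pathway lists lie around the dotted line, the Langerhans cell markers below it and the neutrophil markers above both lines.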

How the data were processed

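The authors deposited whole-number counts for each gene, with no scaling to depth, made with Trimmomatic, HISAT2, SAMtools and StringTie on GRCm38, per the submitters' processing notes; versions, annotation release, strand setting and handling of multi-mapped reads are not given in the sources used here. Per the labels' protocols, 10 to 70 ng of RNA went into each SMARTer Stranded Total RNA-Seq Pico library. Groups were compared with edgeR 4.0.16 (R 4.3.3; quasi-likelihood in its newer form, TMM factors, filterByExpr with a minimum count of 10 and total of 15, tested in both directions), with Benjamini-Hochberg adjustment over 39439 genes at 0.05. SE is the log2 fold change over the square root of F. The older quasi-likelihood form, the default of this version's function, was run first and called 3 genes higher and 5 lower; the newer form, which the earlier processing of these data had used, then replaced it as the main test and called 25 and 54. Neither called any of the 10 genes. On simulated data with known changes the test called some of the largest changes and none of the smaller ones, so a gene not called may still differ. Exon unions, positions and overlaps come from GENCODE vM21 (55227 of 55487 rows matched) with bedtools 2.31.1. The background is the median count per exonic kilobase of 1768 receptor genes in each library; genes with a mean ratio of at least 5 over the 4 libraries (15008, of which 14602 passed the filter) are called above background. Promoters are RefSeq windows on GRCm38.p6, with entries for 8 of the 10 genes. Tables were made with pandas 2.3.3 and plots with matplotlib 3.10.9.

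The 10 genes, the lists and the alternatives were chosen with earlier results of these data known, and the motifs and ratios after the values were seen. All 10 genes are named, with up to 4 genes of smallest p per pathway list, any gene past the threshold there, and the gene of highest mean CPM per marker list; Il1b, Gsdme and the antisense neighbours are named besides for their ratios or overlaps, and some genes the rule names are not reported here. Alternatives were RLE, upper-quartile and no factors, DESeq2 1.42.0, limma-voom (limma 3.58.1), no filter, a stricter filter (10 counts per library and 50 in total), genes above background, a replicate block, each library left out and, added after the data were seen, the older quasi-likelihood form and a crossed block. Counting error was small beside library differences: chi-square per degree of freedom was 95.1 between the Vaseline and 88.1 between the imiquimod libraries.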

Additional observations from a re-analysis of the deposited data

How the results depend on the processing

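Of 156 fold changes of the 10 genes under alternatives, 143 kept their direction and their side of the threshold, 12 changed sign and 1, Pycard with DESeq2, passed the threshold; 6 genes never changed sign. The number of members called was 0 in each setting except DESeq2, where it was 1. Casp1 turned to 0.33 on library totals and to 0.26 and 0.22 among genes above background (edgeR and DESeq2). Txnip turned to -0.02 with DESeq2, -0.03 with RLE factors, -0.01 with limma-voom, -0.10 with the replicate block and with the crossed block, -0.17 without Vaseline 1 and -1.29 without imiquimod 1. Nqo2 turned to 0.50 on library totals and Adora2a to -0.97 without imiquimod 2. With 1 library left out, Txnip ranged from -1.29 to 0.94 and Adora2a from -0.97 to 0.91. The cause was not tested.

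Genes called higher and lower in the whole table, 25 and 54, were 8 and 5 on library totals, 17 and 14 under RLE scaling, 41 and 56 under upper-quartile scaling, 6 and 669 with DESeq2, 41 and 136 with limma-voom, 0 and 0 without a filter, 27 and 124 with the stricter filter, 0 and 0 among genes above background by edgeR (798 and 699 at an unadjusted p under 0.05) and 97 and 156 there by DESeq2, and 3 and 5 with the older quasi-likelihood form. With 1 library left out they ran from 8 to 2959 higher and from 0 to 317 lower, the highest counts being without Vaseline 1. Where 1 arm has a single library, it is assumed to vary like the other group. With the replicate number as a block they were 1 and 0. The labels do not say that numbers pair the libraries; same-numbered libraries deviated in opposite directions (correlation -0.331), and the crossed pairing gave 0 and 0.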

Other observations

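The other marker lists describe what else the preparations held. The 5 T cell markers summed to 179 and 152.5 CPM with Vaseline and to 92.2 and 76.9 CPM with imiquimod. Cd3g, a chain of the T cell receptor complex, had the highest mean level of them. Its log2 fold change was -1.68 (edgeR adjusted p = 0.284, DESeq2 adjusted p = 0.0323, a call), the lowest of the list. Cd3e, Cd3d, Trdc and Trac had -0.77, -0.18, -0.51 and -0.12. Among genes above background DESeq2 did not call Cd3g (adjusted p = 0.219). In the edgeR fit of those genes Cd3g had -0.97, while Cd3e, Cd3d and Trdc had 0.03, 0.55 and 0.18. Of the 6 activated keratinocyte markers each had a positive value (median 1.07), none passed by edgeR, and DESeq2 called 3 among genes above background. Krt16 stood at 123 and 312 CPM with Vaseline and at 611 and 153 CPM with imiquimod, and the treatments overlapped. On library totals it had 117.5 and 186 CPM against 642 and 254 CPM and was higher without overlap. So were 45.6% of all genes and 23.6% of genes above background on that scale. All 8 neutrophil markers had a positive value (median 2.20) and 2 passed by edgeR, S100a8 and Mmp8, named after their values were seen; DESeq2 called 0 in the fit of all genes, and among the 3 above background, without Mmp8, edgeR called 0 and DESeq2 2. S100a9, a calprotectin subunit, had 0.774 and 30.9 CPM with Vaseline and 39.2 and 152 CPM with imiquimod. The 6 monocyte markers had a median of 0.52 and summed to 86.3 and 119.8 CPM with Vaseline and to 33.5 and 87.4 CPM with imiquimod, with Fn1 the highest at a log2 fold change of -0.97.

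Of the 5 fibroblast markers 1 passed, Col3a1 (log2 fold change -2.53, edgeR adjusted p = 0.0408), with 51.3 CPM in Vaseline 2 against 6.86 in Vaseline 1 and 2.56 and 6.98 with imiquimod, so the treatments overlapped. The mast cell, melanocyte and endothelial lists had medians of 1.17, 0.46 and 0.90 and none passed; their highest genes were Kit (0.65), Dct (0.99) and Pecam1 (0.32), and they summed to at most 33.7, 15.5 and 39.5 CPM in any library. The keratinocyte list had a median of -0.96, with Krt14 at 5560 and 7505 CPM with Vaseline and 6502 and 1726 CPM with imiquimod. Of the Langerhans cell list none passed by edgeR and 6 of 7 were called lower by DESeq2; Cd74, the invariant chain of MHC class II, had 9310 and 22386 CPM with Vaseline and 3234 and 2547 CPM with imiquimod.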
